A study of Mus musculus with 6 samples.

Results

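The genes described here form the autophagy and lysosome machinery: 36 genes chosen by name for their part in autophagosome formation, cargo selection and the lysosome. Of these, 35 were measured by a probe set that the array's annotation pairs with 1 gene, out of 19937 genes so measured; where a gene had several, the one with the highest mean over the 6 arrays was used. Optn, which encodes the cargo receptor optineurin, was not analysed here. The cells were neural stem cells and progenitors of 8 week old 129SV mice, grown first as neurospheres with EGF and bFGF and then attached, and collected while dividing at passage 2. The 3 control cultures came from Sirt1lox/lox mice, in which both Sirt1 alleles are floxed and intact, and the 3 cultures without active SIRT1 came from NestinCre;Sirt1lox/lox mice, which carry the same alleles and a Cre driven by Nestin, a gene of neural stem and progenitor cells. Cre was present only in the second group, so its own effect and that of the deletion cannot be told apart. How many mice went into each culture is not stated in the labels.

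Autophagy wraps cytoplasm in a double membrane and delivers it to the lysosome. The ULK1 kinase complex starts the process, the lipid kinase VPS34 with its partners marks the membrane with PI3P, and a pair of ubiquitin-like systems attaches the ATG8 proteins (the LC3 and GABARAP families) to the membrane lipid phosphatidylethanolamine. SIRT1 is known to remove acetyl groups from ATG5, ATG7 and LC3, and acts on autophagy largely at the level of protein, which the arrays do not measure. Neural stem cells are known to depend on autophagy and lysosomes for turnover of protein and for the balance of rest and division.

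TFEB, the transcription factor of lysosomal and autophagy genes, binds an element built around the letters CACGTG, and the stretches that hold these letters in the members' promoters are shown here because they are the candidate sites of that factor. RefSeq promoter windows (GRCm38.p6, 250 bases before to 50 after each annotated start) were at hand for 29 of the 35 members. The letters CACGTG, which read the same on both strands, occurred for 5 of these 29 genes (17.2%) and for 8.09% of all genes with such a window, or 7.15% of all windows. The longer form TCACGTGA, which contains CACGTG, occurred for Atg3 alone among the members and for 1.12% of all genes, and the full palindromic CLEAR element occurred for 0 members and 0.37% of all genes. Each line gives the bases around the matches in lower case, with CACGTG in capitals, on the strand of the gene.
Lamp1, chr8:13159088-13159160, plus strand: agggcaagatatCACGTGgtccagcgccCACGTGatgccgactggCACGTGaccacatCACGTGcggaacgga
Atg3, chr16:45158723-45158775, plus strand: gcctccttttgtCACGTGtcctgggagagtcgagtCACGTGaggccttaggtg
Atg5, chr10:44268313-44268338, plus strand: cggagcgcttgcCACGTGgtcttggt
Atg7, chr6:114670952-114670981, plus strand: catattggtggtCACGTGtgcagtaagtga
Lamp1 held 4 copies, between 61 and 15 bases before the start, Atg3 held 2, and Atg5 and Atg7 held 1 each, 14 and 132 bases before it. The single copy of Atg14 spans the start itself and is not printed.

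Transcripts of the machinery were close to the same level in both genotypes. Values are log2 RMA values, on which a difference of 1 is a doubling, and differences are Sirt1 inactive minus control. The 35 members differed by -0.28 to 0.16, with a median of -0.012, beside -0.022 over the 22961 probe sets tested. With 15 members above 0 and 20 below, 57.1% were below 0, and 60.1% of all probe sets tested were. With array medians subtracted the shares were 48.6% and 48.9%. Without probe sets below the median brightness, which kept 34 members, the order was reversed. There 58.8% of members and 51.4% of all probe sets were below 0, with medians of -0.02 and -0.003. A difference of over 0.1 in size was seen for 9 members, 7 of them lower without active SIRT1, which is 25.7% of members and 29.7% of probe sets.

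No member passed the test across all probe sets (limma, Benjamini-Hochberg threshold 0.05, lowest adjusted p = 0.959), and 0 of 22961 probe sets did (0% called). With the replicate number as a block the lowest adjusted p among members was 0.656, and again 0 probe sets passed. At an unadjusted p under 0.05 there was 1 member, Atg4c, beside 3.61% of all probe sets; with the block there were 2, Ulk2 and Gabarapl1, beside 7.58%. The members were measured with a median standard error (SE) of 0.071. For 34 of 35 the 95% interval lay within 0.5 on either side of 0, the exception being Atg4a, and for 21 it lay within 0.25. Taken over all members the intervals reached from -0.59 to 0.47, that is from 0.665 to 1.39 times control. The targeted gene Sirt1 was at 8.73, 8.78 and 8.55 in control and 8.26, 8.33 and 8.25 without active SIRT1, a difference of -0.41 (SE 0.08) that did not pass either (limma, adjusted p = 0.959).

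**Figure D1:**
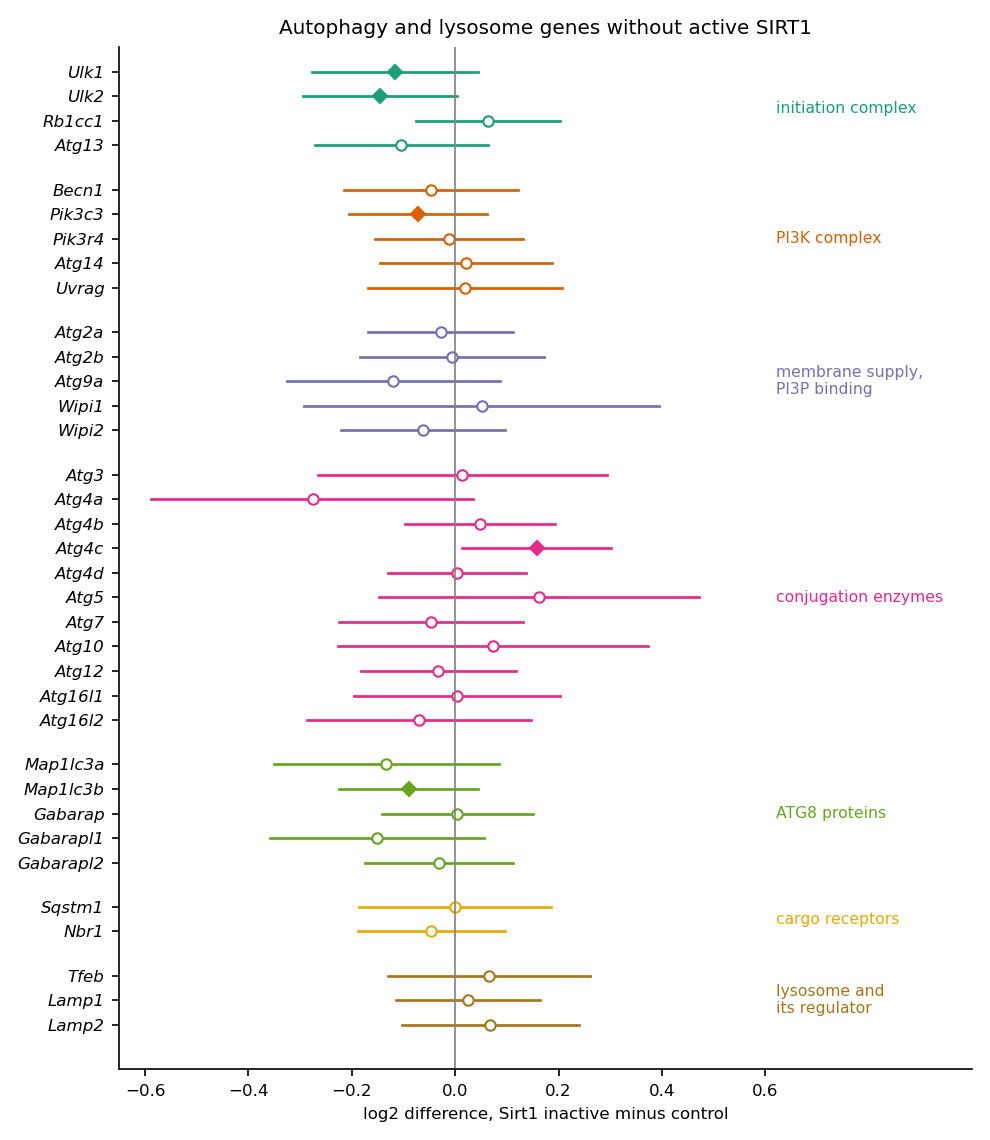
Log2 difference (Sirt1 inactive minus control, horizontal axis) of each of the 35 measured members, grouped by role, with limma's 95% interval as a line; filled diamonds mark the 5 members whose 3 control and 3 Sirt1 inactive arrays do not overlap and open circles the others. The points lie between -0.28 and 0.16, and Atg4a has the widest interval on the lower side.

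Control replicate 3 lay farthest from the rest over all probe sets, with a median absolute distance of 0.117 to the mean of the other arrays, against 0.059 to 0.089 for the other 5. It also had the highest neuroblast and neuron markers (median 0.33 above the mean of the 6 arrays over 11 markers) and the lowest astrocyte markers (-0.23, 8 markers). The members were neither highest nor lowest there: their median was 0.003 above the mean of the arrays, beside 0.045 over all probe sets tested. Control replicate 1 was the highest for the members, with 26 of 35 above their mean and a median of 0.057, beside -0.004 over all probe sets. Of the markers of the labelled cell type, 8 of 9 for stem cells and progenitors and 5 of 5 for dividing cells lay above the median brightness of the probe sets tested on the mean of the arrays. The same was true of 9 of 9 markers of the oligodendrocyte lineage, 7 of 8 of astrocytes, 5 of 11 of neuroblasts and neurons and 2 of 17 of microglia and macrophages. Brightness also depends on the probes, so these counts do not tell stem cells from oligodendrocyte lineage cells or astrocytes. Of the 35 members 34 lay above that median, all but Atg14.

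The ULK complex, which starts autophagy, had the lowest median of the roles, -0.11 over 4 members. Ulk1, the kinase, was at 9.80, 9.79 and 9.97 in the control arrays and at 9.73, 9.73 and 9.76 without active SIRT1. All 3 control arrays were above all 3 Sirt1 inactive arrays and control replicate 3 stood above the other control arrays. The difference was -0.12 (SE 0.07, 95% interval -0.28 to 0.04), and -0.059 without control replicate 3. Its close relative Ulk2 was at 9.52, 9.47 and 9.62 in control and at 9.38, 9.36 and 9.43 without active SIRT1. These groups also did not overlap, and each pair of same-numbered arrays gave a lower value without active SIRT1, with differences of -0.144, -0.110 and -0.184 in the order of their numbers. The difference was -0.15 (SE 0.06, limma, unadjusted p = 0.0533, or 0.0411 with the replicate block; adjusted p = 0.959 and 0.656). Atg13, the adaptor that joins the kinase to the complex, was at 9.77, 9.61 and 9.74 in control and 9.65, 9.52 and 9.63 without active SIRT1, so the groups overlapped while every same-numbered pair had the lower value without SIRT1; its difference was -0.10 (SE 0.07), and -0.065 without Sirt1 inactive replicate 2. Rb1cc1, which encodes the scaffold FIP200, differed by 0.06 (SE 0.06).

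In all, 5 of 35 members had groups that did not overlap, 14.3%, where 9.33% of all probe sets had; 4 of them were lower without active SIRT1, beside 6.71% of probe sets, and 1 was higher, beside 2.62%. For a single gene the exact two-sided permutation test of 3 against 3 arrays cannot go below p = 0.1, which each of these 5 reached.

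**Figure D2:**
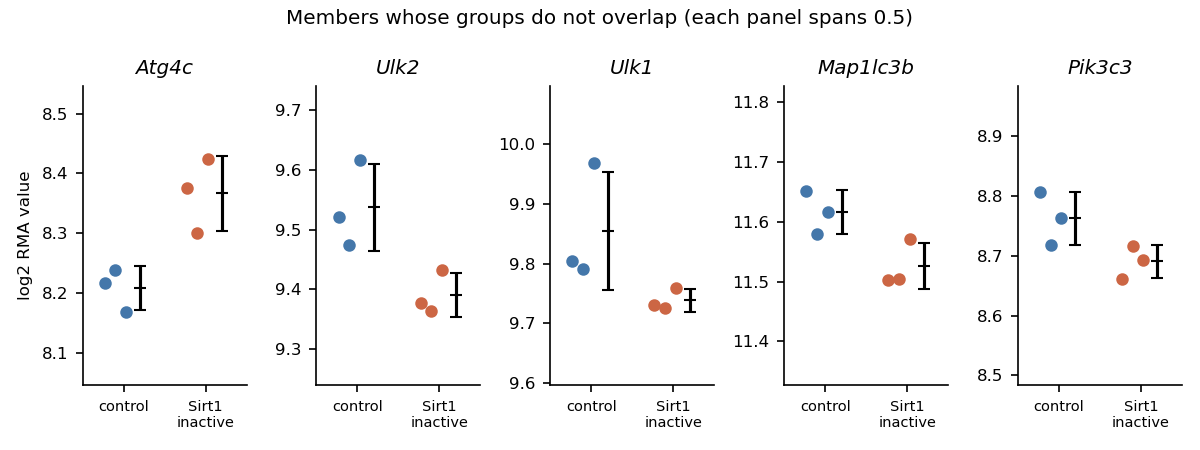
Log2 RMA values (vertical axis) of the 5 members whose groups do not overlap, 3 control arrays in blue and 3 Sirt1 inactive arrays in orange in the order of their replicate numbers, with mean ± SD in black; each panel spans 0.5. Atg4c is higher in all 3 Sirt1 inactive arrays and Ulk2, Ulk1, Map1lc3b and Pik3c3 are lower, with the closest arrays of Pik3c3 both at 8.72.

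The PI3K complex makes PI3P at the growing membrane, and its 5 members differed by -0.07 to 0.02. Pik3c3, the catalytic subunit VPS34, was at 8.81, 8.72 and 8.76 in control and 8.66, 8.72 and 8.69 without active SIRT1. The groups were separate by less than the rounding of these values, and the difference was -0.07 (SE 0.06). Becn1, the regulatory subunit Beclin 1, was at 10.26, 10.27 and 10.20 against 10.10, 10.31 and 10.18, with the highest and the lowest array both among the Sirt1 inactive ones. Pik3r4, the VPS15 subunit, differed by -0.01, Atg14, which directs the complex to autophagosomes, by 0.02, and Uvrag, which directs it to endosomes, by 0.02; all had 95% intervals within 0.25 of 0.

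Proteins that supply lipid to the membrane or read PI3P gave 4 members below 0 and 1 above. Atg9a, a lipid scramblase carried on vesicles, was at 9.52, 9.33 and 9.56 in control and 9.29, 9.29 and 9.47 without active SIRT1. Its groups overlapped through control replicate 2 and Sirt1 inactive replicate 3, and all 3 same-numbered pairs had the lower value without SIRT1; the difference was -0.12 (SE 0.09), and it was -0.19 without control replicate 2 and -0.074 without control replicate 3. Wipi1, a PI3P-binding protein, had the widest spread of the members in control, at 9.59, 9.34 and 8.97 against 9.40, 9.31 and 9.33. Its difference of 0.05 (SE 0.15) turned to -0.11 without control replicate 3, the array with the low value. Wipi2, which recruits the conjugation machinery, differed by -0.06 (SE 0.07), with 3 of 3 pairs lower. The lipid transfer proteins Atg2a and Atg2b differed by -0.03 and -0.01.

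The 11 conjugation enzymes held both the lowest and the highest differences of the machinery, with 7 above 0, 4 below and a median of 0.003. Atg4c, one of the 4 cysteine proteases that cut ATG8 proteins before and after conjugation, was at 8.22, 8.24 and 8.17 in control and 8.37, 8.30 and 8.42 without active SIRT1. Every Sirt1 inactive array was above every control array, and all 3 pairs were higher. The difference was 0.16 (SE 0.06, 95% interval 0.014 to 0.30), or 1.12-fold, with limma's unadjusted p = 0.0353, or 0.051 with the replicate block, and adjusted p = 0.959. Across the alternatives it stayed between 0.11 and 0.19. The other proteases Atg4b and Atg4d differed by 0.05 (SE 0.06) and 0.003 (SE 0.06).

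Atg4a had the largest difference of the machinery, and it was not shared by the gene's other probe set. The probe set used was at 10.31, 10.01 and 10.10 in control and 9.71, 10.13 and 9.75 without active SIRT1, a difference of -0.28 (SE 0.13, limma, adjusted p = 0.959). Sirt1 inactive replicate 2 was above 2 of the control arrays, so the groups overlapped. Atg4a lies on chromosome X, but 19 of the 20 single-gene probe sets next to this one in number belong to genes of chromosome 3. The other probe set, whose 20 neighbours all belong to chromosome X, was at 8.74, 8.68 and 8.66 against 8.63, 8.76 and 8.63, a difference of -0.02 (SE 0.06). Which of the 2 reads the transcript of the X-linked gene was not tested, and the value of Atg4a is uncertain on that account.

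Similar doubts attached to a pair of ATG8 genes on chromosome 8. The probe set used for Gabarapl2 had 18 of its 20 neighbours on chromosome 5, and it was at 11.95, 11.86 and 11.88 in control and 11.88, 11.81 and 11.90 without active SIRT1, a difference of -0.03 (SE 0.06). Its other probe set, all of whose neighbours lie on chromosome 8, was dim, at 6.39, 6.46 and 6.72 against 6.34, 6.24 and 6.31. It differed by -0.22 (SE 0.09) without overlap of the groups (limma, unadjusted p = 0.0485, adjusted p = 0.959). The counts of members use the brighter probe set, so this one is not among them. For Map1lc3b the probe set used had all 20 neighbours on chromosome 8, and the second had all 20 on chromosome 14, with values of 9.69, 9.73 and 9.60 against 9.36, 9.29 and 9.71, a difference of -0.22 (SE 0.11). In each case both probe sets had a difference below 0, of a size that differed between them. Atg2b, the remaining member with 2 probe sets, differed by -0.01 by both.

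**Figure D3:**
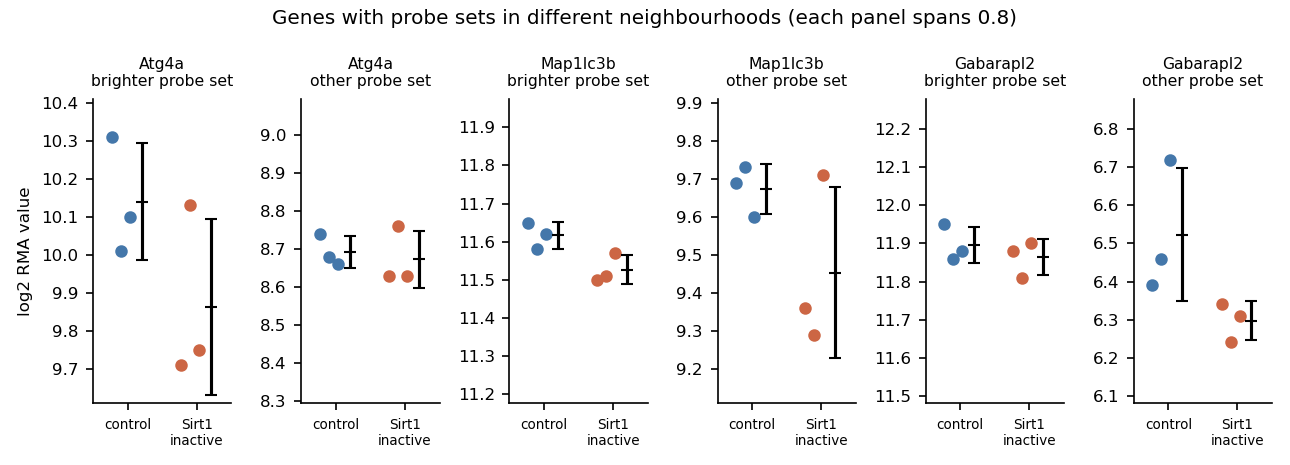
Log2 RMA values (vertical axis) from both probe sets of Atg4a, Map1lc3b and Gabarapl2 in 3 control arrays (blue) and 3 Sirt1 inactive arrays (orange), with mean ± SD in black; each panel spans 0.8. The brighter probe set of Atg4a shows a mean difference of -0.28 and the other -0.02.

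The members of the conjugation cascade other than the Atg4 proteases, among them those SIRT1 is known to deacetylate, differed by -0.07 (Atg16l2) to 0.16 (Atg5). Atg5, the part of the E3-like complex joined to ATG12, was at 8.89, 8.95 and 8.81 in control and 8.94, 9.35 and 8.84 without active SIRT1. Sirt1 inactive replicate 2 was the high one, and the difference of 0.16 (SE 0.13) was 0.0094 without it and 0.26 without Sirt1 inactive replicate 3. Atg7, the E1-like enzyme, was at 9.01, 8.91 and 9.11 against 8.96, 8.89 and 9.04, a difference of -0.05 (SE 0.07). Atg7 was lower in every pair, with differences of -0.072 to -0.015, and the groups overlapped.

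Of the E2-like enzymes, Atg3, which acts on ATG8 proteins, was at 10.14, 10.37 and 10.38 in control and 10.20, 10.55 and 10.19 without active SIRT1, a difference of 0.01 (SE 0.12). Atg10, which acts on ATG12, was at 8.91, 8.67 and 8.43 against 8.63, 8.74 and 8.86. Its same-numbered pairs ran in opposite directions, at -0.28 for number 1 and 0.43 for number 3, and its difference of 0.07 (SE 0.13) was -0.048 without control replicate 3. Atg12, the ubiquitin-like protein, differed by -0.03 (SE 0.06), Atg16l1, which holds the E3-like complex at the membrane, by 0.003 (SE 0.08), and its relative Atg16l2 by -0.07 (SE 0.09).

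The ATG8 proteins, which coat the membrane and bind cargo receptors, had 4 of 5 members below 0 and a median of -0.09. Map1lc3b, the LC3B gene, was at 11.65, 11.58 and 11.62 in control and 11.50, 11.51 and 11.57 without active SIRT1. The groups did not overlap, all 3 pairs were lower, and the difference was -0.09 (SE 0.06), or 0.939 times control. Gabarapl1 was at 11.13, 11.00 and 11.26 in control and 10.99, 10.87 and 11.06 without active SIRT1. Its arrays kept the same order in both genotypes, number 3 highest and number 2 lowest, and the differences within pairs were alike, at -0.135, -0.124 and -0.196. The difference was -0.15 (SE 0.09), with limma's unadjusted p = 0.128, or 0.0364 with the replicate block (adjusted p = 0.959 and 0.656), and leaving out control replicate 3 gave -0.086, leaving out Sirt1 inactive replicate 2 -0.099.

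Map1lc3a, the LC3A gene, was at 9.25, 9.24 and 9.42 against 9.16, 9.04 and 9.32, lower in 3 of 3 pairs, with a difference of -0.13 (SE 0.09). Leaving out control replicate 3 gave -0.074, and leaving out Sirt1 inactive replicate 2 or 3 gave -0.065 or -0.21. Map1lc3a and Gabarapl1 are well expressed in neurons, and markers of neuroblasts and neurons went the same way. Of these 9 of 11 were below 0 (81.8%, beside 60.1% of all probe sets), with list means of 8.45 to 8.70 in control and 8.25 to 8.44 without active SIRT1. Their median difference was -0.26, and -0.084 without control replicate 3. Astrocyte markers went the other way, with 6 of 8 above 0 and a median of 0.094, or 0.035 without control replicate 3. The oligodendrocyte lineage was mixed, with 6 of 9 markers below 0 (66.7%), by at most 0.20 in size. The 3 above 0 differed by up to 0.79, and their groups did not overlap (33.3% of the list, beside 2.62% of all probe sets higher without overlap). The part of these cell types in the result was not tested, and in bulk cultures fewer cells of a type and less RNA per cell cannot be told apart. Gabarap itself was at 12.54, 12.43 and 12.41 against 12.50, 12.43 and 12.47, a difference of 0.004 (SE 0.06).

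**Figure D4:**
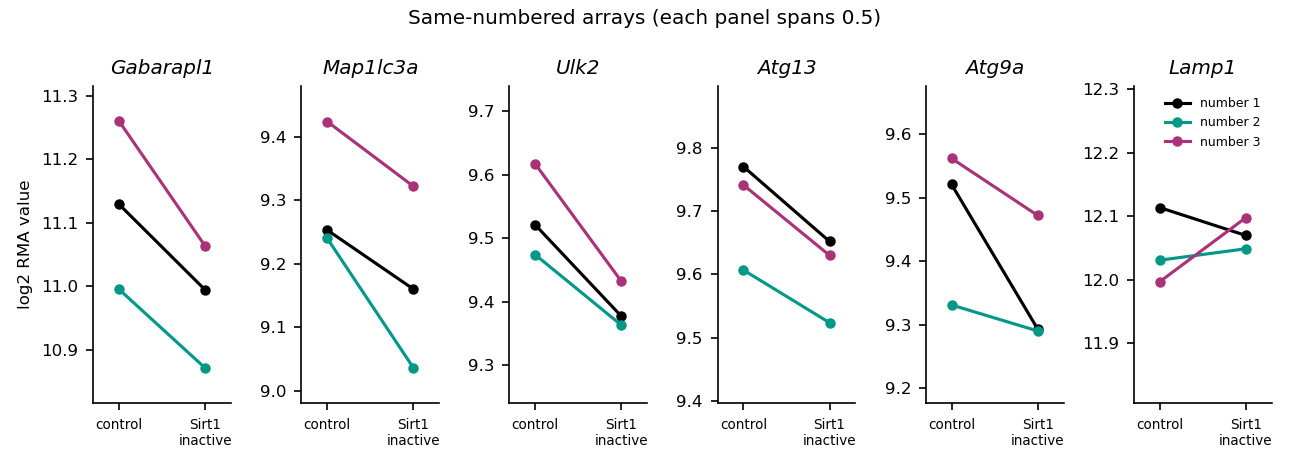
Log2 RMA values (vertical axis) of 6 members in control and Sirt1 inactive arrays, with lines joining arrays of the same replicate number (1 black, 2 green, 3 purple); each panel spans 0.5. Gabarapl1, Map1lc3a, Ulk2, Atg13 and Atg9a are lower without active SIRT1 in all 3 pairs, while the pairs of Lamp1 run in both directions.

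Members with the same direction in all 3 pairs numbered 12 of 35, or 34.3%, beside 31.6% of all probe sets. The pairs themselves were unlike: 29 of 35 members (82.9%) were lower without active SIRT1 in pair 1, 21 (60.0%) in pair 2 and 18 (51.4%) in pair 3, where the shares over all probe sets were 54.3%, 52.3% and 62.6%. Pair 1 holds the highest and the lowest array for the members. In control replicate 1, 26 of 35 were above their mean (median 0.057), and in Sirt1 inactive replicate 1, 11 were (median -0.043). The pair differences come from these same values, and why the pairs differ was not tested.

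Cargo receptors link ubiquitin-tagged material to ATG8 proteins, and both measured ones differed by under 0.1 in size. Sqstm1, which encodes p62, was at 11.72, 11.55 and 11.53 in control and 11.63, 11.50 and 11.67 without active SIRT1, a difference of -0.00064 with a 95% interval of -0.19 to 0.19. Its groups overlapped, with the highest array in control and the lowest among the Sirt1 inactive ones. Nbr1, a relative of p62, was at 10.65, 10.56 and 10.53 against 10.55, 10.51 and 10.54, a difference of -0.05 (SE 0.06).

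The lysosomal members and their regulator were all slightly above 0. Tfeb was at 8.42, 8.22 and 8.20 in control and 8.36, 8.26 and 8.43 without active SIRT1, a difference of 0.07 (SE 0.08). Lamp1, the main glycoprotein of the lysosomal membrane, was at 12.114, 12.031 and 11.997 against 12.070, 12.049 and 12.098, a difference of 0.025 (SE 0.06). Lamp2, which carries chaperone-mediated autophagy in 1 of its forms and helps fusion with the lysosome, was at 11.67, 11.58 and 11.45 against 11.67, 11.62 and 11.62. Control replicate 3 was the lowest array for all of these genes, and without it Lamp2 went from 0.07 (SE 0.07) to 0.0095. The 5 members with CACGTG in the promoter window, Lamp1, Atg3, Atg5, Atg7 and Atg14, differed by -0.05 to 0.16 with a median of 0.021, and the 24 without it by -0.28 to 0.16 with a median of -0.02.

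Other genes of the pathway, read from 6 further lists, also gave no call: 0 of 115 measured genes passed in either direction. The counts below 0 given for these lists stand beside 60.1% of all probe sets tested. Of the probe sets above the median brightness, where nearly all of these genes lay, 51.4% were below 0. Of 41 lysosomal enzymes and proteins 19 were above 0 and 22 below, with a median of -0.005, and 35 of the 41 were lower in pair 1 but 14 in pair 3. Ids, iduronate sulfatase, differed by -0.14 (SE 0.06), Ctsd, the protease cathepsin D, by 0.14 (SE 0.08), Asah1, acid ceramidase, by 0.24 (SE 0.15), and Arsa, arylsulfatase A, by 0.14 (SE 0.09). Asah1 was at 10.95, 11.48 and 11.47 in control and 11.48, 11.52 and 11.63 without active SIRT1, so that control replicate 1 alone was low. Macrophages and microglia are rich in lysosomal enzymes, and 15 of 17 of their markers were below 0 (88.2%, beside 60.1% of all probe sets). Their median was -0.044, beside -0.022 over all probe sets, and -0.02 with array medians subtracted. These markers were dim, with 2 of 17 above the median brightness. Of the probe sets above that median 51.4% were below 0, so 60.1% understates the share among dim ones. The mean of the list was 6.80 to 6.92 in control and 6.78 to 6.82 without active SIRT1, and its part in the lysosomal values was not tested.

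The proton pump of the lysosome, the V-ATPase, had 5 of 15 measured subunits above 0 and 10 below, with a median of -0.023. Atp6v0d1 differed by -0.15 (SE 0.09), Atp6v1b2 by -0.08, Atp6v0a1 by -0.07 and Atp6v1d by 0.05. The genes that sense nutrients and energy upstream of ULK1 had 20 of 25 below 0 and a median of -0.041. Within it the sestrins, which restrain mTORC1, stood at -0.16 for Sesn1, -0.22 for Sesn2 and -0.08 for Sesn3, and Rragd, a GTPase that ties mTORC1 to the lysosome, at -0.13. Sesn2 was at 10.22, 10.24 and 10.75 in control and 10.22, 10.07 and 10.28 without active SIRT1, with control replicate 3 the only array that stood apart.

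Genes that fuse autophagosomes with lysosomes had 8 of 11 below 0 and a median of -0.053. Vps39, a subunit of the HOPS tether, was at 10.00, 10.04 and 10.14 in control and 9.85, 9.88 and 9.94 without active SIRT1. Its groups did not overlap, and all 3 pairs were lower; the difference was -0.17 (SE 0.06), with limma's unadjusted p = 0.0322 and adjusted p = 0.959. Plekhm1, an adaptor between Rab7, HOPS and ATG8 proteins, differed by -0.16 (SE 0.08), the HOPS subunit Vps18 by -0.13 (SE 0.08) and the GTPase gene Rab7 by -0.08 (SE 0.05). Rab7 was at 11.80, 11.78 and 11.80 against 11.74, 11.71 and 11.68, without overlap. In all, 3 of the 11 had groups that did not overlap, each lower without active SIRT1 (27.3%, beside 6.71% of all probe sets). The median of this list was -0.017 without control replicate 3.

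Among 11 further selective autophagy receptors 7 were below 0, with a median of -0.017. Calcoco1, an ER-phagy receptor, differed by -0.16 (SE 0.07) and Tollip, an endosomal adaptor, by -0.10 (SE 0.07), while Fundc1, a mitophagy receptor, stood at 0.06 and Ncoa4, the ferritin receptor, at -0.10. Of 12 other autophagosome genes and regulators 10 were below 0, with a median of -0.051. Epg5, a tether of autophagosomes, differed by -0.09 (SE 0.06), Vmp1, an ER scramblase, by 0.13 (SE 0.10), Tecpr1 by -0.10 (SE 0.08) and Atg101, a partner of ATG13, by -0.09 (SE 0.10).

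**Figure D5:**
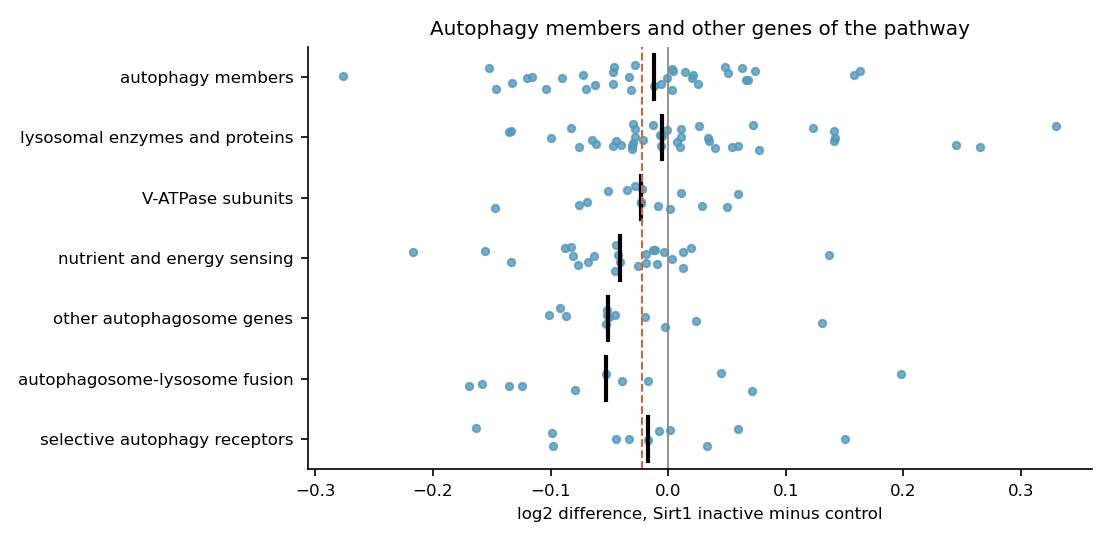
Log2 difference (Sirt1 inactive minus control, horizontal axis) of each measured gene (dots) in the 35 members and 6 further lists, with the median of each list as a black bar and the median of all probe sets tested, -0.022, as a dashed line. The list medians lie between -0.053 and -0.005, and vertical scatter within a list has no meaning.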

How the data were processed

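Expression was measured on 6 Affymetrix whole-transcript arrays, 1 per culture. The authors deposited log2 values, 1 for each probe set on each array, and used RMA to make them, as stated in the submitters' processing notes; its version and the annotation's genome build are not given in the sources used. RMA evens out brightness between arrays and narrows differences at the dim end. Array medians were 7.36 to 7.39, and the table held 0 columns of other samples. Arrays have no read depth, and their number limits the precision. Whether the cultures came from separate mice is not stated beyond the word biological replicate, so p-values measure the spread between these cultures.

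Of 34760 probe sets, 21640 were paired with 1 gene, 1321 with several and 11799 with none in the platform annotation used; the 22961 with a gene were tested. Members' symbols matched NCBI RefSeq's gene table (GRCm38.p6) by Entrez identifier for 35 of 35. Differences were fitted with limma 3.58.1 in R 4.3.3 (linear model with genotype, empirical Bayes), two-sided and Benjamini-Hochberg adjusted over all probe sets tested. On simulated data the fit recovered 2.5% of log2 changes of 0.25, 46.7% of changes of 0.5 and 87.1% of changes of 1. Changes as small as the members' differences were thus rarely called there. The simulated noise was independent between arrays, without a deviation shared by replicate number, and changes of up to 2 were planted together. In the arrays themselves 0 probe sets passed, so these shares may not hold for the test reported here. Arrays of the same replicate number deviated together (correlations of 0.47, 0.36 and 0.27 for numbers 1, 2 and 3), so the numbers were taken to pair the arrays. Arrays of unlike number gave correlations of -0.318 to -0.022. The pairing was thus read from these same data, and the labels do not state it. A fit with the number as a block was also run, and its values are given above for some genes only. It moved limma's unadjusted p from 0.0737 to 0.0324 for Plekhm1 and from 0.0588 to 0.0357 for Calcoco1 (adjusted p = 0.656 for both with the block). Members, lists and tests were chosen with earlier results of these data known. Named genes are all members, up to 4 genes of each further list with the smallest unadjusted p, and Sirt1. Alternatives were other scalings, a brightness filter, other choices of probe set, priors, array weights and leaving out arrays.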

Additional observations from a re-analysis of the deposited data

How the results depend on the processing

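No member passed the test in any of the alternatives run, and neither did Sirt1 or the other genes named from the further lists. Leaving out both arrays of number 3 with the replicate block kept gave 19 probe sets past the threshold, none of them a member (lowest adjusted p among members 0.586), and a median of the members of -0.059; every other setting gave 0 probe sets. In the fit with the replicate block on all 6 arrays the median of the members was -0.012, and the block changed no call. Of 60 gene differences recomputed, 21 changed sign under at least 1 alternative, all of a size under 0.1 with all arrays; the cause was not tested, beyond the fewer arrays where some were left out. With array medians subtracted Pik3r4 was 0.012, Atg2b 0.018 and Sqstm1 0.024, and after a renewed quantile normalization Atg2b was 0.0011 and Gabarap -0.0046. With array weights Wipi1 was -0.00014, Atg3 -0.055, Atg7 0.034, Atg16l1 -0.0097, Sqstm1 0.037, Atp6v0a1 0.007 and Ncoa4 0.015. Of the 9 members that differed by over 0.1 in size, array weights moved 7 by over 1.5 times: Ulk1 was then -0.07, Ulk2 -0.097, Atg13 -0.043, Atg9a -0.01, Map1lc3a -0.049, Gabarapl1 -0.05 and Atg5 0.061. In the paired fit without number 3 Atg14 was -0.04, Atg2b 0.021, Wipi1 -0.11, Atg10 -0.11, Atg16l1 -0.067, Atg16l2 0.023, Gabarap -0.023, Tfeb -0.013, Lamp1 -0.013 and Atg101 0.013.

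Leaving out 1 array at a time gave ranges of -0.1 to 0.0013 for Becn1, -0.044 to 0.026 for Pik3r4, -0.037 to 0.07 for Atg14, -0.019 to 0.095 for Uvrag, -0.052 to 0.0064 for Atg2a, -0.07 to 0.04 for Atg2b, -0.11 to 0.2 for Wipi1, -0.1 to 0.076 for Atg3, -0.023 to 0.022 for Atg4d, -0.098 to 0.0037 for Atg7, -0.048 to 0.19 for Atg10, -0.062 to 0.062 for Atg16l1, -0.12 to 0.014 for Atg16l2, -0.021 to 0.042 for Gabarap, -0.038 to 0.061 for Sqstm1, -4e-05 to 0.059 for Lamp1, -0.02 to 0.098 for Atp6v1d and -0.22 to 0.023 for Ncoa4. The median of the members moved by more than the spread between arrays in the paired fit without number 3, to -0.059. There 71.4% of members were below 0, beside 54.1% of all probe sets, whose median was -0.009. Without control replicate 3 the shares were 65.7% and 53.7%, and without Sirt1 inactive replicate 1 they were 51.4% and 58.6%. Among the further lists, the V-ATPase median also moved by more than that spread (0.002 with array medians subtracted, 0.007 with array weights). That of nutrient and energy sensing did too (-0.013 with array weights, -0.054 to -0.015 with 1 array left out). Other autophagosome genes gave -0.027 with array medians subtracted, -0.025 with array weights, -0.035 in the paired fit without number 3 and -0.046 to -0.022 with 1 array left out. With 1 array left out, fusion genes gave -0.08 to -0.017, microglia markers -0.105 to -0.03 and neuron markers -0.342 to -0.084, the last without control replicate 3. Averaging a gene's probe sets gave -0.15 for Atg4a, -0.16 for Map1lc3b and -0.13 for Gabarapl2. Comparing the other probe set of Atg4a, Map1lc3b, Gabarapl2 and Atg2b was chosen after the data were seen.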
